A study of Mus musculus with 12 samples.

Results

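The change in 5-hydroxymethylcytosine (5hmC) between differentiative progenitors (DP) and neurons (N) of the mouse cortex was described at all 47478 5hmC peaks of the series, out of 102563 peaks of both marks. For each peak, the change was the level in N minus the level in DP on the log2 scale, minus the median of that difference over all peaks, which was -0.02. Cells came from the cortex of embryos at embryonic day 14.5 that were heterozygous for both a Btg2-RFP and a Tubb3-GFP reporter, so every cell type carried both alleles. Proliferative progenitors (PP) were sorted as negative for both reporters, DP as RFP-positive and GFP-negative, and N as GFP-positive whatever their RFP, so the N fraction can hold any Tubb3-expressing neuron of the dissected tissue. GEO lists 12 samples: per cell type and mark, 1 immunoprecipitate with its input. The study's methods state 3 biological replicates, but the levels in the tables are the authors' means per cell type, with no value per replicate, so no value here has a replicate error. The tables also hold the authors' own comparisons, which were not used, and no difference between DP and N was tested here.

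Cytosine methylated at the 5 position (5mC) is oxidised to 5hmC by the TET enzymes, as a step of demethylation and as a mark that can persist. Neurons are known for high 5hmC, found largely in gene bodies and enhancers, and PP and DP are the dividing cells from which they arise: PP expand the progenitor pool and DP divide to give neurons. The expression values that accompany the peaks come from earlier work of the authors on the same cell types, and from no sample of this series. These values followed the cell types. All 6 PP markers with a value (Pax6, Sox2, Hes5, Hes1, Vim, and Nes) were highest in PP, all 5 DP markers (Eomes, Btg2, Dll3, Insm1, and Neurog2) in DP, and all 6 N markers with a value (of 7 listed) in N. The summed expression of 10 markers of other cells (of 14 listed) came to 1838 (PP), 5435 (DP), and 45391 (N). Most of that sum in N was Reln at 36007, a Cajal-Retzius and interneuron gene, and Gad1, an enzyme of GABA synthesis, stood at 32.3 (PP), 41.9 (DP), and 3055 (N). In N, the endothelial marker Cldn5 was at 4.9, and the microglial markers Cx3cr1 and Csf1r were at 7.5 and 67.4. Another endothelial marker, Pecam1, was at 26.5 in DP and only slightly lower in N. Of the other markers in this sum, Pdgfra was at 29.6 and Olig2 at 5.8 in N. The part that cells expressing Reln or Gad1 had in the 5hmC levels of N was not tested.

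Promoters are shown first, as the peaks whose sequence could be read. The sequences are from RefSeq (GRCm38.p6, the assembly called mm10) and cover the 250 bases before a gene's start, 5′ to 3′ on the strand of the gene, with the part inside the 5hmC peak in capitals. Of 32851 such stretches, 369 met a 5hmC peak (346 peaks). The 5 shown are those with at least 100 bases in a peak assigned to the same gene and a change of at least 1.5-fold, the 3 with the largest gain and the 2 that were lost. Dctd (chr8:48098842-48099091, plus strand) encodes the deaminase that turns dCMP into dUMP. Clnk (chr5:38876694-38876943, minus strand) encodes an adaptor of immune receptor signalling. A730060N03Rik lies at chr15:78118545-78118794, plus strand. Oprl1 (chr2:181714766-181715015, plus strand) encodes the nociceptin receptor. Spsb1 (chr4:149955007-149955256, minus strand) encodes a substrate adaptor of a ubiquitin ligase.

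Dctd: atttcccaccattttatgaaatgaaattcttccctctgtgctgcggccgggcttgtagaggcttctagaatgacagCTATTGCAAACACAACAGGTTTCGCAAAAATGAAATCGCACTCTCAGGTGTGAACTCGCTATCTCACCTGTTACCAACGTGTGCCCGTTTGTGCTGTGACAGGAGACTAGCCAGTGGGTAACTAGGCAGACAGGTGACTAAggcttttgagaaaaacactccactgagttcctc
Clnk: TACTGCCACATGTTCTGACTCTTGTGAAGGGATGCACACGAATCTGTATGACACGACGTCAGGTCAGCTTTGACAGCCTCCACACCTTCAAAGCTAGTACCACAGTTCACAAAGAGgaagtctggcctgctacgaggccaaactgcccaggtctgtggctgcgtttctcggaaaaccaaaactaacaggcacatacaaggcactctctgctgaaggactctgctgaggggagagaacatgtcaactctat
A730060N03Rik: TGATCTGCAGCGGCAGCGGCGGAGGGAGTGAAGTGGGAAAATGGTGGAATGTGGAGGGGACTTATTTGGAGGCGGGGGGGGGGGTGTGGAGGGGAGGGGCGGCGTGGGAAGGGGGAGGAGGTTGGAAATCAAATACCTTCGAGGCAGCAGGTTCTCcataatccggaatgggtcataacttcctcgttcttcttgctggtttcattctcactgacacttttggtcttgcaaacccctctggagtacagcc
Oprl1: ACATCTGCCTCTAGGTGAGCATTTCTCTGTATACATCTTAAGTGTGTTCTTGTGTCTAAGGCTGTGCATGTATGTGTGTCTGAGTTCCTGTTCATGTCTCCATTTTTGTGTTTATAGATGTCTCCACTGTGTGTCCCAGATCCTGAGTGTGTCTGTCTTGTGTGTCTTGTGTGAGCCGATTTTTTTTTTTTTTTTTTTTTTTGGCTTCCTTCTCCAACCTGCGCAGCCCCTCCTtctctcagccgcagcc
Spsb1: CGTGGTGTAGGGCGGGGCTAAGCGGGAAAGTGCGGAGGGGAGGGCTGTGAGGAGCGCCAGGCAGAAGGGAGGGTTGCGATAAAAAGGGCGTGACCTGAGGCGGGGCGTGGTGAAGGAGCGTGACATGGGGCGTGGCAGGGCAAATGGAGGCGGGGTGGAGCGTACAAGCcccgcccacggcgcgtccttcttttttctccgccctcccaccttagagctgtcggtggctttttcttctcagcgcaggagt

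The Dctd promoter peak stood at 0.34 (PP), 2.39 (DP), and 4.25 (N) on the log2 scale of 5hmC, a centred change of 1.88, and held 5 CpG of the 7 in the stretch. The Clnk peak stood at 0.94 in PP, 3.31 in DP, and 4.81 in N, a change of 1.52, with 3 of 6 CpG inside it. The A730060N03Rik peak was at 4.00, 3.72, and 4.94, a change of 1.24. In these 3 promoters the level in N was the highest of the 3 cell types, while expression went in no shared direction: it was 785 in DP and 778 in N for Dctd, 8.0 and 4.1 for Clnk, and 2.3 and 65.4 for A730060N03Rik. The Oprl1 peak was at 4.43 in PP, 4.88 in DP, and 4.07 in N, a change of -0.79, and expression of Oprl1 was 781 in DP and 3765 in N. The Spsb1 peak was at 4.74, 4.82, and 4.10, a change of -0.70, in a stretch with 20 CpG, 13 of them in the peak, and its expression was 728 in DP and 528 in N.

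A set of hexamers was searched on both strands of each 250-base stretch: 3 E-boxes, which bHLH factors bind, the homeodomain core TAATTA, the site of NFI factors (letters TTGGCA), and the core of the SOX motif (letters ACAAAG). The E-boxes searched were CAGCTG, the form CAGATG, and the form CACGTG. Each was counted on its own, with overlaps between motifs allowed. Of the 73 stretches that met a gained peak, 19 (26.03%) held CAGCTG and 20 (27.4%) held CAGATG. Of all stretches, 13.0% held CAGCTG and 14.4% held CAGATG, and of those with any 5hmC peak, 13.8% and 18.4%. Among the 29 stretches with a lost peak, 4 held CAGCTG and 5 held CAGATG. The form CACGTG was in 6.85% of the stretches with a gained peak, 6.78% of those with any peak, and 6.02% of all. The shares in the same order were 16.4%, 14.4%, and 12.3% for TTGGCA and 11.0%, 15.2%, and 16.5% for ACAAAG. The homeodomain core TAATTA was in 0 of 73 with a gained peak, 6 of 369 (1.63%) with any peak, and 4.84% of all. These are matches of letters in the stretch, inside or outside the peak, and are a description. The median number of CpG was 7 in stretches with a gained peak, 8 with a lost peak, and 6 in all.

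Gains exceeded losses. A peak was called gained or lost where its centred change was at least 1.5-fold, or 0.58 on the log2 scale, in either direction. By that rule 7823 peaks (16.5%) were gained and 3359 (7.07%) were lost, a ratio of 2.33. At 2-fold, 3811 (8.03%) were gained and 565 (1.19%) lost, and 635 were gained and 35 lost at least 4-fold. The quartiles were -0.27 and 0.36, and the 1st and 99th percentiles were -1.05 and 2.16, so the spread of changes had a longer arm towards gain. For comparison, the same rule applied to PP and DP, which share the DP samples with this comparison, gave 11.2% of peaks gained and 4.68% lost. Of 12848 nearest genes with a peak, 4375 had a gained peak, 2723 a lost one, and 1148 at least 1 of each. Whether the 1148 differ from what the 2 other counts alone would give was not tested.

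**Figure D1:**
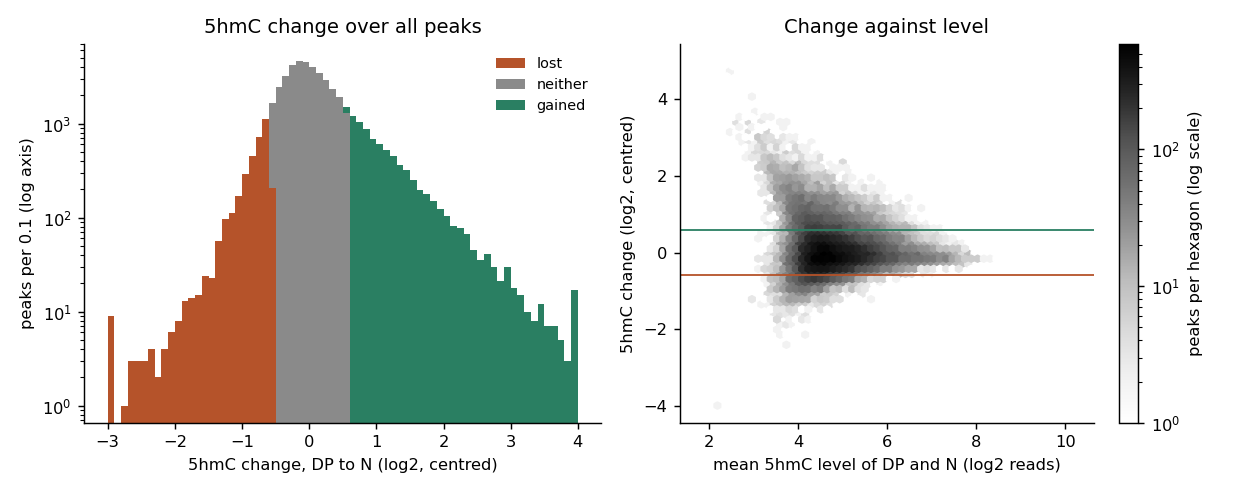
Left, number of 5hmC peaks (log axis) by centred log2 change from DP to N in steps of 0.1, with peaks gained or lost at least 1.5-fold coloured and values beyond the axis placed in the end bars. Right, the change (clipped at -4 and 5) against the mean level of DP and N, each hexagon shaded by its number of peaks, with lines at the 1.5-fold limits; the arm of gains (7823 peaks) is longer than that of losses (3359 peaks) and lies towards low mean levels.

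Gained peaks had less 5hmC than other peaks in both progenitors. Gained peaks had median levels of 3.72 (PP), 3.94 (DP), and 4.95 (N), and over all peaks 4.72, 4.71, and 4.75 (about 26.3, 26.2, and 26.9 normalised reads). For the 635 peaks gained at least 4-fold the medians were 1.91, 2.43, and 4.83. Peaks that gained therefore ended at a level in N close to the median of all peaks, from a lower start. Lost peaks showed the opposite course, with medians of 4.57 (PP), 4.72 (DP), and 3.92 (N). A low level in DP and a gain share the DP value. By PP level, which is not part of the change, the lowest 10% of peaks had 77.3% gained (median levels 2.91, 3.71, and 4.69 in PP, DP, and N), the next 10% had 32.2%, and the highest 10% had 1.56%. Among the 39945 peaks with a PP level of at least 4, a limit set after seeing the data, 3077 (7.70%) were gained and 3032 (7.59%) lost. These shares by PP level are a description and not independent of the way peaks were chosen: a peak entered the table through a call in all replicates of some cell type, and the table does not say of which, so a peak too low to be called in either progenitor had to be called in N. In sorted populations, fewer cells with the mark and less of it per cell cannot be told apart.

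Weak peaks passed the limit more often in both directions, where the level and the change come from the same values. In the lowest 10% of the mean level of DP and N, 41.7% of peaks were gained and 18.1% lost, against 7.83% and 0.76% in the highest 10%. The narrowest peaks (up to 133 bp) had 37.9% gained, the share was lowest at over 156 to 164 bp (10.2%), and it was 13.3% and 15.6% in the 2 widest of 8 classes, so it did not fall steadily with width, with a median width of 164 bp over all peaks and 152 bp over gained ones.

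The largest gains with both levels at least 2 (about 4 reads) were assigned to Xylt1, Pwwp2b, Mxd4, Tiam1, Ccna1, Mdfi, Anxa3, Gm16520, a copy of 7SK, and Phyhipl, with changes from 3.65 to 3.04. Only those of Xylt1 and Ccna1 lay inside the gene, and that of Anxa3 was farthest from its TSS (distance of -163774 bp). The peak inside Xylt1, which encodes a xylosyltransferase that starts glycosaminoglycan chains, was at the lowest level of the table in PP (-0.05), at 2.31 in DP, and at 5.94 in N. The peak upstream of Tiam1, an activator of RAC in neuronal migration and neurite growth, stood at 0.93, 2.12, and 5.33. That upstream of Mxd4, a MAX partner that opposes MYC, stood at 1.34, 2.07, and 5.30. All 10 were highest in N, and in 9 of them the level was under 2.5 in PP. Without a limit on level the largest gains were inside Lmo7 (1.02, 0.58, and 5.68 in PP, DP, and N), inside 2610028E06Rik (1.33, 0.09, and 4.99), and upstream of Arglu1 (-0.05, 0.09, and 4.87), and their size depends on DP levels at about 1 read.

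The largest losses with both levels at least 2 were assigned to Crb2, Dpy19l1, Sfi1, Arl15, Ebf1, E330009J07Rik, Insm1, C8b, Gm16758, and Stx6, with changes from -2.79 to -2.34. The Crb2 peak was at 5.58 in PP, 5.16 in DP, and 2.35 in N. Crb2 encodes an apical polarity protein of radial glia, and its expression was 8849, 4411, and 121, although the peak lay 188446 bp from the TSS. The peak upstream of Insm1, a transcription factor that promotes basal progenitors, was at 4.79, 4.99, and 2.53, and Insm1 expression was 5905, 14633, and 8638. The peak upstream of Dpy19l1, a gene of radial migration, went the other way from expression: 6.96, 6.58, and 3.86 for 5hmC and 6122, 4479, and 25500 for expression. In each of these 10 the level in N was lower than in both progenitors. Without a limit the largest losses were upstream of Pak3, with 8.57 in DP but -0.05 in both PP and N, downstream of Adamts20 (4.84, 4.55, and -0.05), and downstream of AY036118 (-0.05, 4.34, and -0.05). The Pak3 and AY036118 peaks were thus high in DP and at the lowest level of the table in PP and N. The Dpy19l1 and Pak3 peaks met 5mC peaks at 9.53 and 9.90 in DP. The DP median of the 5mC peaks met by peaks lost at least 2-fold was 4.92. Why these 5mC levels were so high was not tested.

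Peaks marked as inside the gene they were assigned to gained more often than those marked as upstream or downstream of it. Position is given relative to that nearest gene only, so an upstream or downstream peak can lie inside another gene. It can also lie inside another form of the assigned gene. For Cux2, upstream peaks lay on both sides of its inside peak, so their distances refer to different starts. Of 17176 peaks inside their assigned gene, 19.8% were gained and 6.48% lost. Of 20002 upstream peaks 14.1% were gained, and of 10165 downstream peaks 15.5%. From PP to DP, 13.0% of inside, 9.63% of upstream, and 11.4% of downstream peaks were gained. Peaks inside genes made up 43.5% of gained, 33.1% of lost, and 36.2% of all peaks. Close to the TSS (up to 500 bp) 13.0% were gained and 10.4% lost, from 1 to 2 kb 18.3% and 5.49%, from 5 to 10 kb 15.2% and 7.44%, and from 50 to 100 kb 18.2% and 6.61%. The share gained thus did not follow distance in one direction, and beyond 200 kb 10.4% were gained and 8.86% lost. Of the inside peaks, 89.0% could be placed along their host gene with RefSeq coordinates. Gains made up 18.3% of peaks in the first 0.1 of the gene, 19.6% from 0.5 to 0.75 of its length, 23.6% from 0.75 to 0.9, and 31.4% in the last 0.1 (421 peaks). In genes over 30 kb, the share was 18.8% in the first 0.1 and 32.3% in the last (269 peaks). From PP to DP, in genes of any length, it was 10.5% in the first 0.1 and 17.3% in the last. Assignment was to the nearest TSS, so a peak late in a gene was counted there only where no other TSS lay closer.

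The X chromosome stood apart from the autosomes. Of its 1009 peaks, 4.06% were gained and 7.73% lost, with a median change of -0.11, while the share gained on single autosomes ran from 14.1% (chromosome 7) to 18.8% (chromosome 5). The share lost on X was close to the 7.06% of all autosomal peaks. The low share gained on X was not particular to this step. Between PP and DP, 2.18% of X peaks were gained and 8.33% lost, against 11.4% and 4.60% of autosomal ones. The sex of the embryos was not given in the sources used here.

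Gains occurred in neighbouring peaks. When a peak was gained and the next one lay within 500 bp, the next was gained in 36.0% of 258 cases, against 21.8% of all next peaks at that distance. From 5 to 20 kb it was 23.8% against 17.9%, and beyond 100 kb it was 14.0% against 11.97%. For lost peaks the next within 500 bp was lost in 7.69% of 78 cases, against 6.44%. The rank correlation of the changes was 0.23 over 1319 pairs within 500 bp and 0.01 over 4569 pairs beyond 100 kb. Close peaks can share DNA fragments, and the pairs are not independent.

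For peaks inside their assigned gene, gains were more frequent where expression was higher. Expression is the authors' normalised value from earlier RNA-seq of the same cell types, not of the samples used here. Of inside peaks in genes with a value in N of up to 10, 12.9% were gained, then 15.8% (up to 100), 17.6% (up to 1000), 20.4% (up to 5000), and 26.4% above 5000. The last class held 4094 peaks with a median change of 0.18, and its share gained exceeded that of all peaks of the same chromosome on 20 of 20 chromosomes (with 5000 itself included). With both levels at least 2 the shares ran from 12.7% to 25.95%. From PP to DP, the share of inside peaks gained also ran upwards over these classes, from 8.93% to 16.3%. Upstream peaks showed 14.6% in the lowest and 14.8% in the highest class, and downstream peaks 16.7% and 18.1%. The share of lost peaks inside genes was 7.64% in the lowest class and 5.54% in the highest.

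**Figure D2:**
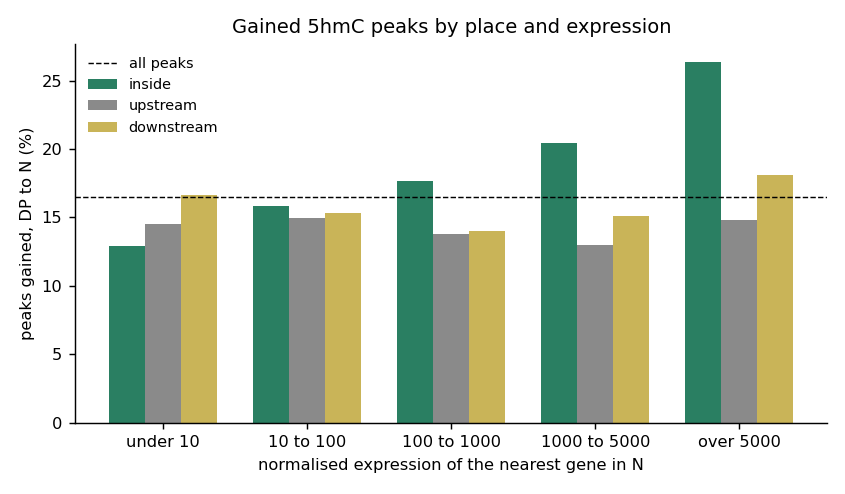
Share of 5hmC peaks gained at least 1.5-fold from DP to N (bars, percent) by the nearest gene's normalised expression in N, for peaks inside, upstream, and downstream of the gene, with a dashed line at the 16.5% of all peaks. Inside genes the share runs from 12.9% to 26.4%, and upstream it stays between 13.0% and 15.0%.

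The change in expression had almost no rank correlation with the change in 5hmC across peaks. Spearman's coefficient was 0.02 over 47478 peaks, where peaks of a gene share its expression value. Expression change was taken as log2 of N over DP after adding 10 to both. Of peaks whose gene was at least 4-fold higher in N, 18.2% were gained, and of those whose gene was at least 4-fold lower, 15.0%. For peaks inside their gene these shares were 21.6% and 16.7%, and 18.5% where the expression change was from -0.5 to 0.5. The rank correlation over inside peaks was 0.02. Inside genes with a value above 5000 in N, the share gained was 31.0% where expression was at least 2-fold lower in N (58 peaks), 25.7% where it differed by less, and 27.3% where it was at least 2-fold higher (1540 peaks). The genes whose expression differed most between DP and N, among those with at least 3 peaks, had few gained peaks. Mc4r (melanocortin receptor), Lrfn5 (synaptic adhesion), Rph3a (vesicle release), Gria1 (AMPA receptor subunit), and Glra2 (glycine receptor subunit) were 6.25 to 6.81 higher in N on the log2 scale, and their median 5hmC changes ran from -0.56 to -0.11, with 2 gained peaks of 50 in all. Lrfn5, at 31.1 in DP and 4604 in N, had 12 peaks between -0.51 and 0.40 and none past either limit. Plce1, Lfng, S1pr1, Hes1, and Wwtr1 had expression changes from -6.29 to -5.93, with median 5hmC changes from -0.30 to 0.42. Hes1, the Notch effector, had 4 peaks between -0.17 and 0.35 while its expression was 2620 in DP and 29.5 in N. Lfng, which modifies Notch, was the exception with a positive median of 0.42 and 1 gained peak of 5.

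Where gained 5hmC peaks met a 5mC peak, 5mC was lower in N. At least 1 bp of a 5mC peak was met by 6725 5hmC peaks (14.2%). That share was 11.3% of peaks with little 5hmC change (under 0.25), 24.2% of those gained 1.5 to 2-fold, 32.5% of those gained 2 to 4-fold, and 44.4% of those gained at least 4-fold. It was 5.98% and 11.5% of peaks lost 1.5 to 2-fold and at least 2-fold. The difference was also seen within levels of 5hmC in N: in the lowest 25% of peaks by that level, 19.4% of gained peaks and 6.63% of those neither gained nor lost met a 5mC peak, and in the highest 25% 38.6% and 18.9%. The 5mC change, centred the same way on its own median of -0.18, had a median of 0.02 at peaks with little 5hmC change, and -0.28, -0.43, and -0.58 over the 3 classes of gain. The 5mC change was below 0 at 76.1%, 85.1%, and 90.8% of the peaks in these classes, and at 61.7% of all 6725. Of those gained at least 4-fold, 48.9% of 282 had 5mC lost at least 1.5-fold, against 20.8% of all 6725 pairs and 9.36% of all 55085 5mC peaks. In the same class 0.35% had 5mC gained, against 5.12% of all 5mC peaks.

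The levels of both marks give the course over the 3 cell types. In the class gained at least 4-fold the 5mC medians were 5.48 (PP), 5.41 (DP), and 4.61 (N), while 5hmC was 1.91, 2.43, and 4.83 in the class as a whole. At peaks with little change 5mC was 5.06, 5.08, and 4.88. At the 65 peaks lost at least 2-fold that met a 5mC peak, the 5mC change was below 0 at 56.9%, and at 41.5% 5mC was lost at least 1.5-fold as well, as at Adamts20 (5mC of 4.55 in PP, 3.75 in DP, and 0.11 in N). At the 167 peaks lost 1.5 to 2-fold that met one, these shares were 47.3% and 10.2%, near the 47.2% and 9.84% at peaks with little change. Over both classes of loss, the 5mC change was below 0 at 50%. Across the 6725 pairs Spearman's rank correlation between both changes was -0.37. The immunoprecipitations of the 2 marks were separate, and the pairs share the sorted cells.

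**Figure D3:**
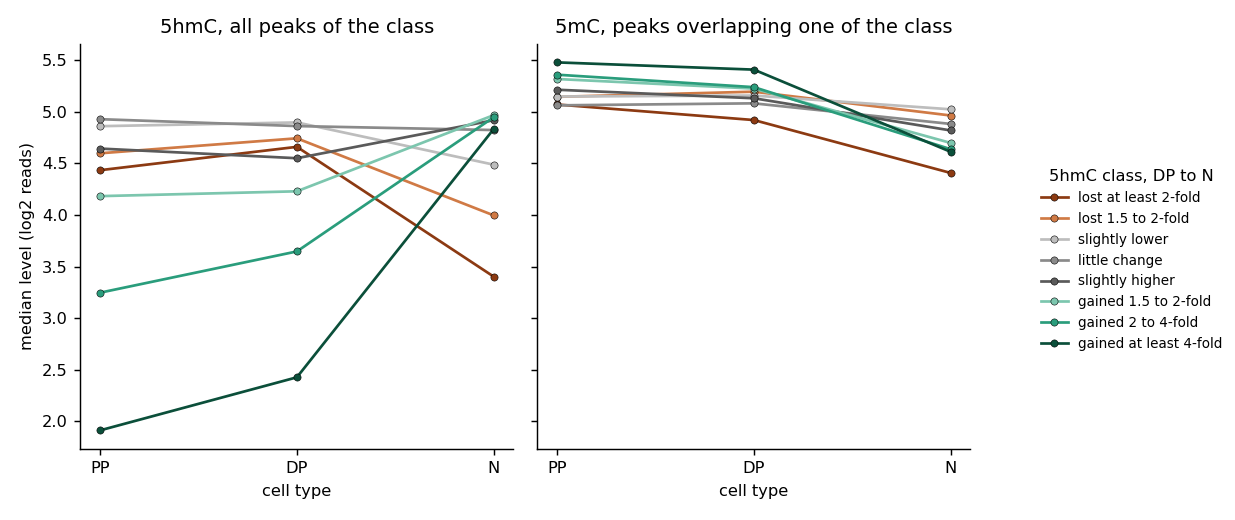
Median level (log2 normalised reads) in PP, DP, and N of all 5hmC peaks by class of 5hmC change from DP to N (left) and of the 5mC peaks they overlap (right), 1 line per class. In the peaks gained at least 4-fold, 5hmC runs from 1.91 to 4.83 and 5mC from 5.48 to 4.61 between PP and N.

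By gene, gains were spread over many loci. The peaks counted for a gene are those assigned to it, and these can lie far outside it. Of 3137 gene symbols with at least 5 peaks, 1642 had a median change above 0. The median was past the 1.5-fold limit in 133 for gain and in 4 for loss, and all peaks were above 0 in 68 and none in 76. Tmem50b, which encodes a small membrane protein, had the highest median, 1.84. Its 5 peaks all lay inside the gene, with changes of 0.72, 0.98, 1.84, 2.63, and 2.70, and levels in DP from 1.79 to 4.28 and in N from 4.40 to 5.23. Expression of Tmem50b was 1426 in DP and 5452 in N. Akap5, the anchoring protein that holds protein kinase A at synapses, had 5 of 5 peaks gained, from 0.71 to 3.86. The peak inside Akap5 was at 2.40 in PP, 0.88 in DP, and 4.72 in N. Chst15, a chondroitin sulfotransferase, had 8 of 14 peaks gained (median 1.20) and expression of 2425 in DP and 5983 in N, and Lrch1 had 6 of 9 (median 1.19). Dusp14, a phosphatase of MAP kinases, and Sod3, the extracellular superoxide dismutase, had medians of 1.23 and 1.14, and Sod3 was nearly unexpressed (1.0 and 2.0). The other 4 of the highest 10 were 1700060J05Rik, Gm9754, Nat9, and 5033430I15Rik, with medians from 1.27 to 1.13.

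The 10 lowest medians were Gm14117 at -0.90, Nsun5, Ccdc129, Tbca, Sfi1, Mc4r, Cth, Adra1a, Hif1a, and AC154824.1, the last at -0.51. Hif1a, the hypoxia-response factor, had 7 peaks, all upstream of it, from -0.88 to 0.27, with expression of 7699 in DP and 7214 in N. Sfi1, a centriole protein, had 11 peaks from -2.63 to 0.31 and no gain. The Sfi1 peaks were high in 5hmC, with medians of 6.27 in PP, 6.40 in DP, and 5.55 in N. Cth, the cystathionine lyase, had 5 peaks from -0.85 to 0.06 and expression of 185 in DP and 30.9 in N.

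By number, the symbol 7SK had 40 gained peaks of 123, U6 had 22 of 113, and 5S_rRNA had 15 of 32, but these symbols name many copies across the genome. For 5S_rRNA, most peaks and most gained ones lay around a single copy, at chr18:69453930-69664542. These were upstream or downstream of that copy and can lie inside another gene, which was not looked up. Among single genes, Tshz1, a zinc finger factor of the developing brain, had 15 of 31 peaks gained, Gins2 (replication complex) 14 of 30, Pvrl1 (nectin adhesion) 13 of 26, and Setbp1 12 of 30. Of all peaks of these genes, 11 lay inside Tshz1, 10 inside Pvrl1, and 21 inside Setbp1. Only 1 of 30 lay inside Gins2, and the others were downstream, up to 179143 bp from its TSS. A730018C14Rik, Gm16214, and Nav2 followed with 11 gained peaks each. Nav2, a cytoskeletal guidance protein, had expression of 1497 in DP and 15673 in N, while Tshz1 had 4585 and 2150, and Gins2 2424 and 1032. By number, the most lost peaks lay near U6 (6 of 113), 7SK (6 of 123), Prickle1 (6 of 35), Chordc1 (5 of 20), and Cntn3 (5 of 11), against 7.07% of all peaks lost. For U6 and 7SK the share lost was below that of all peaks. Cntn3, a contactin of axons, had 11 peaks from -0.91 to 0.22, at medians of 4.33 in PP, 4.66 in DP, and 4.16 in N. Prickle1 had 10 gained beside its lost peaks, with changes from -0.96 to 2.78.

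**Figure D4:**
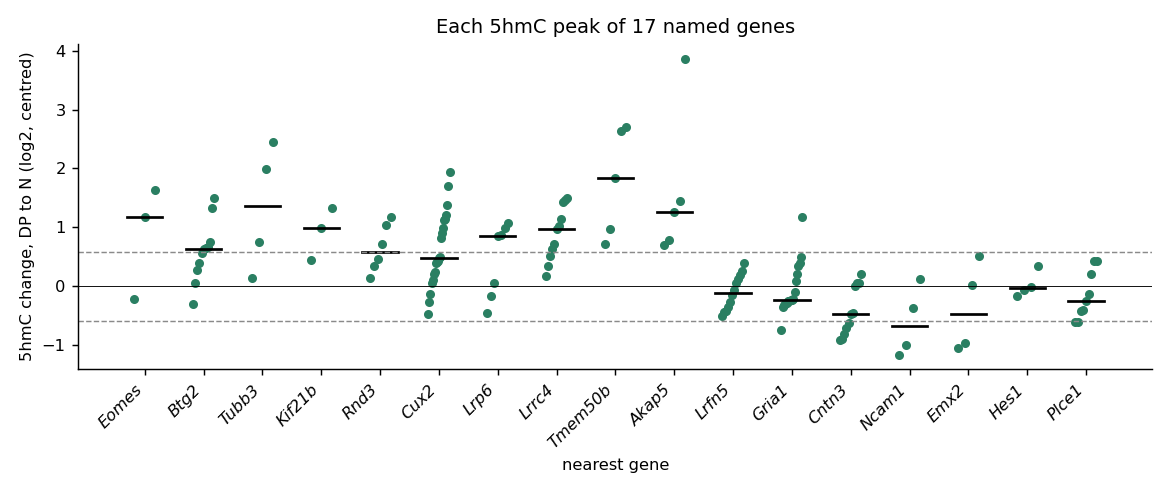
Centred log2 5hmC change from DP to N of every peak (points) assigned to 17 genes named in the text, with the median (black bar) and dashed lines at the 1.5-fold limits. All peaks of Tmem50b and Akap5 lie above the upper limit, while Lrfn5 has none past either limit.

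The gene lists differed in their share of gained peaks around the 16.5% of all peaks, and 9 of the 18 lists with a peak lay above it. Intermediate progenitor genes, those typical of DP, had 26.9% of 93 peaks gained and 6.45% lost, while 10 of the 17 genes were at least 2-fold lower in N and none was 2-fold higher. The high share was not particular to this step: from PP to DP the list had 25.8% gained, against 11.2% of all peaks. Eomes, the T-box factor of these cells, was expressed at 10188 (PP), 50497 (DP), and 3626 (N). Of its 3 peaks, all inside the gene, one was at 5.61, 5.54, and 5.31 in PP, DP, and N, a second at 1.99, 3.99, and 5.14, and the third at 1.65, 3.46, and 5.07. Both of the latter were thus highest in N, where Eomes expression was lowest. Btg2, the antiproliferative gene that the RFP reporter is named for, had 6 of 11 peaks gained (median 0.64, from -0.29 to 1.49), and its expression was 38556 in DP and 7484 in N. Insm1 was the lowest of the list, with a median of -0.19 over 5 peaks.

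The list of projection neuron transcription factors, which also holds Rnd3, had 23.6% of 220 peaks gained and 5.45% lost. Rnd3, a small GTPase of migrating neurons, had 6 peaks, all above 0 (from 0.13 to 1.18, median 0.59). Cux2, a factor of upper-layer neurons, had 9 of 21 gained (median 0.49) and expression of 5178 in DP and 13213 in N, and the symbol covers 2 sets of expression values. Zfpm2 and Lmo3 were lowest, with medians of -0.19 and -0.18. Genes of the Wnt pathway had 22.3% of 265 peaks gained and 6.79% lost, though 23 of their 43 genes were at least 2-fold lower in N. Lrp6, the Wnt co-receptor, had 4 of 7 gained (median 0.85), and Sfrp1, a secreted Wnt antagonist, had 3 of 4 (median 0.76), with expression of 15483 in DP and 4560 in N. Daam2 and Dkk3 had medians of -0.31 and -0.34. Proneural bHLH factors and their partners had 21.5% of 79 peaks gained, with Tcf3 (0.40) and Id2 (0.39) highest and Neurod6 (-0.14) lowest among those with 3 peaks or more.

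Neuronal cytoskeleton genes had 19.1% of 152 peaks gained. Tubb3, the neuronal tubulin that the GFP reporter is named for, had 4 peaks. The peak just upstream of its TSS (distance of -907 bp) was at 3.03 in PP, 3.30 in DP, and 5.72 in N, and met a 5mC peak. The peaks inside were at 3.94, 3.83, and 5.79, and at 4.21, 4.02, and 4.75, and the one downstream was nearly level (4.93, 4.56, and 4.69). Kif21b, a kinesin, had changes of 0.45, 0.99, and 1.32. Dpysl5 and Stmn2 were lowest in the list, with medians of -0.53 and -0.37, although expression of Stmn2 was 369 in DP and 21956 in N. Axon guidance genes had 18.3% of 393 peaks gained, led by Epha4 (8 of 15, median 0.64) and Efna2 (0.56), with Epha6 (-0.48) and Sema7a (-0.42) at the other end. Voltage-gated ion channels had 17.1% of 533, with Kcnab2 (1.12, 5 of 8 gained) and Kcng3 (1.04, 4 of 5) highest and Scn9a (-0.71) and Kcnma1 (-0.42) lowest.

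With all peaks counted, the lists of synaptic genes had a smaller share gained than all peaks, although most of these genes were more expressed in N. Synaptic vesicle genes had 14.8% of 176 peaks gained and 10.2% lost (27 of 37 genes at least 2-fold higher in N), synaptic adhesion genes 14.0% of 400 (35 of 40 genes), and glutamate and GABA receptors 11.3% of 239 and 8.37% lost (25 of 35 genes). Cadherins and protocadherins had 10.4% of 260 gained and 8.46% lost. These shares depend on distant peaks: with only peaks inside a gene or within 10 kb, where 18.1% of all 23756 peaks were gained, the shares were 16.9% for vesicle genes, 18.5% for adhesion genes, 15.3% for receptors, and 16.8% for cadherins. Single genes departed from their list: Nrxn2, a presynaptic neurexin, had a median of 0.92 over 6 peaks, Lrrc4, a postsynaptic adhesion protein, 0.97 over 11 with 8 gained, Rab3a 0.83 over 3, and Cplx2 0.58 over 8. For Lrrc4, 7 peaks are marked as inside but lie beyond the span that RefSeq gives the gene. Ncam1, the neural adhesion molecule, had peaks at -1.16, -0.99, -0.36, and 0.12, with expression of 8667 in DP and 30627 in N. Syt13 had a median of -0.83 over 3 peaks, Syt7 -0.35, Gabbr1 -0.29, Grik2 -0.36, Pcdhb22 -0.66, and Cdh7 -0.28, and Gabbr2 (0.35), Grik4 (0.45), Cdh4 (0.95), and Cdh8 (0.24) were the highest of their lists.

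Radial glia genes, typical of PP, had the largest share of lost peaks among the 18 lists, 12.6% of 167, with 16.2% gained, and 24 of 28 genes were at least 2-fold lower in N. Emx2 (-0.47) and Slc1a3 (-0.18) were lowest. Emx2, a patterning factor of the cortex, had peaks at -1.05 and -0.97 beside 2 at 0.02 and 0.51. Fgfr3 (0.94, expression of 19904 in DP and 2140 in N) and Notch3 (0.69, 8190 and 177) were highest. Cell cycle genes had 15.7% of 134 gained (9.62% of those inside or within 10 kb), with 6 of 19 peaks of Mki67 gained (median 0.38) while its expression was 52107 in DP and 1585 in N, Cdk6 at 0.28, and Cenpf (-0.38) and Ccne1 (-0.16) lowest. Genes of cytosine methylation had 12.1% of 58 gained, and 20.7% of those inside or within 10 kb. Tet3, a TET enzyme, was highest in that list at a median of 0.48 over 8 peaks inside the gene, one of them at 2.93 in PP, 2.46 in DP, and 5.05 in N, and Dnmt3a (-0.21) and Mbd2 (-0.14) lowest. Expression of Tet3 was 18896 in DP and 19753 in N, of Tet2 7353 and 7772, of Tet1 4445 and 4011, of the maintenance methyltransferase Dnmt1 17127 and 9774, and of its partner Uhrf1 9397 and 497.

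Lists of other cells had few peaks. Interneuron and subpallial genes had 18.2% of 55 gained, Cajal-Retzius genes 18.9% of 37, genes of glia, vessel, blood, and microglia 15.1% of 106, and regulators of non-neural lineages 8.70% of 46, and no peak was assigned to a gene of the Hox clusters. Cldn5 had 4 peaks, all below 0 (from -0.73 to -0.28). Dlx2, a factor of interneurons, had 3 peaks, all above 0 (from 0.38 to 0.61), and its expression was 1226 in DP and 2227 in N. Prox1, Adarb2, Ptprc, Zic1, Gata6, and Twist1 had medians from -0.28 to -0.16, and Npy, Cspg4, Pecam1, Lhx1, Ebf3, Lhx5, Tbx5, and Pax7 medians from 0.05 to 0.39.

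**Figure D5:**
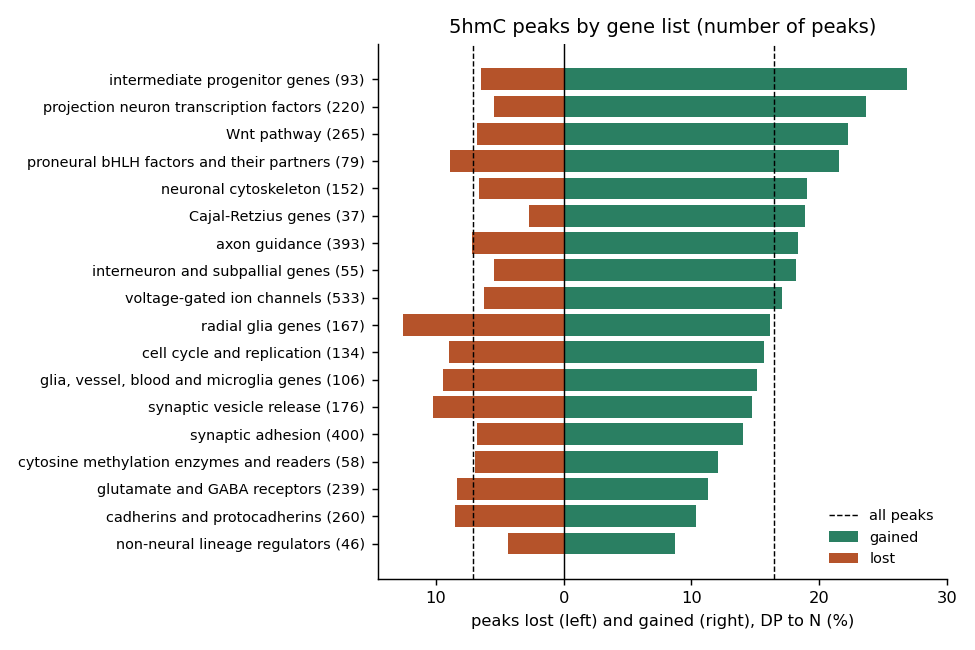
Share of 5hmC peaks lost (left) and gained (right) at least 1.5-fold from DP to N in each of 18 gene lists, with the number of peaks in parentheses and dashed lines at 7.07% lost and 16.5% gained over all peaks. Intermediate progenitor genes have the highest share gained (26.9%) and radial glia genes the highest share lost (12.6%).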

How the data were processed

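Sorted PP, DP, and N were profiled by the authors by comparative (h)MeDIP, in which barcoded DNA of the cell types was immunoprecipitated together. Reads were aligned to mm10 with BWA 0.7.8-r455, and peaks were called with SICER 1.1, merged across cell types where every replicate had them, stripped of repeats, and annotated with HOMER 4.7. The level columns deposited by the authors hold log2 of the mean normalised reads of a peak per cell type from DiffBind. Distance to the TSS in bp and normalised expression are scores deposited by the authors, the latter on a scale not given in the sources used here. Fold, p-value, and expression-change columns of the authors' own comparisons were not used. Read depth per sample is described in the study's methods, but the tables give no counts per peak, and input signal was not used here.

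All rows were used, including 5 that repeat a peak. Change was N minus DP, centred on its median. Limits were 1.5-fold, with 2-fold as an alternative, and expression changes used a pseudocount of 10. Overlap was at least 1 bp. Promoter stretches were searched because no genome was used here, a choice made after seeing the data. Of 12848 symbols, 10832 matched RefSeq. The levels give 1 mean per cell type and the authors' test results were left unused, so no test was run, and peaks or genes were not treated as replicates. Named peaks were the 10 largest gains and losses with both levels at least 2 and the 3 largest without that limit. Named genes were the 10 highest and lowest medians among genes with at least 5 peaks, the 10 with most gained and 5 with most lost peaks, the 2 highest and lowest of each of 19 lists among genes with at least 3 peaks, and the 5 in each direction whose expression differed most. Members and lists were chosen with earlier results of these data known. The scripts were tested on simulated data and run with python 3.11.15, pandas 2.3.3, and numpy 2.4.6, and matplotlib 3.10.9 drew the figures. Alternatives covered centring, limits, filters, and overlap.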

Additional observations from a re-analysis of the deposited data

How the results depend on the processing

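Of 43 alternative values of the main results, 24 stayed within 1.5 times a count or within the binomial interval of a share, and 19 did not. Among them, with a 2-fold limit the counts were 3811 gained and 565 lost, the share gained was 31.7% in the lowest 10% of mean level, 9.59% inside genes, and 6.80% upstream, and 5mC was below 0 at 86.3% of gained and 56.9% of lost peaks. At a mean level at or above the median, 2692 peaks were gained and 728 lost, and at a PP level of at least 4, 3077 were gained. Limits on PP level, and both on the share by level, were added after seeing the data. With both levels at least 2, the share gained in the lowest 10% of level was 39.6%. Within 5 kb of a TSS 16.5% of peaks were gained, against 13.8% within 1 kb. With peaks inside a gene or within 10 kb only, the share gained was 20.8% for genes at least 2-fold higher in N and 16.3% for those lower, against 18.2% and 15.5% with all peaks, and 0 genes had a median lost. With at least 3 peaks per gene, 337 medians were gained and 31 lost, and with at least 10 peaks 27 and 0, fewer genes being counted. Single lists gave 36 values, of which 31 stayed within their interval. The other 5, all with peaks inside a gene or within 10 kb, were axon guidance (24.9%), synaptic adhesion (18.5%), cadherins (16.8%), the Wnt pathway (28.9%), and the cell cycle (9.62%). Reading sequence from whole peaks was not run, as no genome was used here. No paired analysis was possible because the levels are 1 mean per cell type and no test was run, and for the same reason no replicate could be left out.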
